A study of Mus musculus with 4 samples.

Results

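Amino acids and several neurotransmitters cross cell membranes on solute carriers (Slc proteins), and the families Slc1, Slc3, Slc6, Slc7, Slc36, Slc38 and Slc43 hold most of the plasma membrane and lysosomal carriers of these molecules. Their genes were taken from the deposited expression table by symbol, leaving out the creatine transporter Slc6a8, which gave 61 of its 38201 genes. One of the 61, Slc7a6os, encodes no carrier and matched only because it is named after its neighbor Slc7a6. Ureteric epithelial cells had been sorted with Dolichos biflorus agglutinin (DBA), a lectin that labels ureteric epithelium, from the kidneys of mouse embryos at 18.5 days. The DKO group was Esrp1 -/-, Esrp2 -/- and the control group Esrp1 +/+, Esrp2 -/-, so both groups lacked the splicing factor Esrp2 in every cell and only Esrp1 differed. Each group had 2 libraries of poly(A) RNA, each pooled from 3 embryos, and single embryos were not measured.

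In the nephron these carriers work in a fixed arrangement. At the apical membrane of the proximal tubule, sodium-coupled carriers and the heavy chain Slc3a1 with its light chain take up the amino acids that the glomerulus has filtered, and at the basolateral membrane Slc3a2 with other light chains passes them to the blood. A heavy chain brings its light chain to the membrane, and the light chain does the transport. Other members supply amino acids to growing cells of every kind, serve lysosomes, or recover GABA, glycine and monoamines from synapses.

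The starting point of the comparison was what the sorted cells contained. Esrp1 was listed at 8.65 and 7.29 FPKM (fragments scaled to transcript length and to the size of the library) in DKO cells, against 27.0 and 31.4 in control cells, on the labelled side in both groups. All 16 genes of a list for ureteric and collecting duct epithelium were detected, with summed levels of 1575 and 1649 FPKM in DKO cells, against 1200 and 1745 in control cells. Markers of other cells were detected as well, with no listed gene at 0 in every library. The 20 proximal tubule markers, none of them a member, summed to 453 and 402 FPKM in DKO cells, against 681 and 829 in control cells, and 19 of the 20 lay below both controls. The 9 macrophage markers summed to 447 and 415 FPKM against 1731 and 816, and 9 of 9 lay below both controls. In contrast, 10 of 10 stroma markers and 7 of 10 endothelial markers lay above both controls, with sums of 214 and 352 against 104 and 145 FPKM for stroma and of 205 and 257 against 107 and 186 for endothelium. Over all 18884 genes tested, 22.6% lay below both controls and 20.8% above. In these bulk samples, fewer cells of a type and less RNA per cell cannot be told apart. The table gives no read totals, but the spacing of its lowest values put control replicate 1 at 0.508 times the depth of DKO replicate 1, and DKO replicate 2 and control replicate 2 at 1.09 and 1.10 times.

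Some promoters of members hold motifs of factors that act in the proximal tubule, and 2 are shown, chosen after the values were seen, because both genes lay below both controls. They are RefSeq windows of 250 bases before to 50 bases after a start site in GRCm38.p6, the assembly of mm10. HNF1 and HNF4 proteins are transcription factors of the proximal tubule, and the capitals mark the HNF1 core GTTAAT or its complement ATTAAC and the HNF4 motif CAAAGTCCA, searched on both strands, and none of the matches shown overlaps another. The first window is on the plus strand at chr17:85028097-85028396, with the HNF4 motif starting at -39 and the HNF1 core at +2 from the start site. The second is on the minus strand at chr14:54409423-54409722, with the HNF1 core starting at -86, and is 1 of 5 windows listed for its gene, the other 4 holding neither motif.
Slc3a1: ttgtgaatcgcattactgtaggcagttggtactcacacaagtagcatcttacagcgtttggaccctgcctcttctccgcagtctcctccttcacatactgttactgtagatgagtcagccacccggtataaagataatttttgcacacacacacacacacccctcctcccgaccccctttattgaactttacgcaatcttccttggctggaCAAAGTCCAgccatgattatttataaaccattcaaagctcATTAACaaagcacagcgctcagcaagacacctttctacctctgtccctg
Slc7a7: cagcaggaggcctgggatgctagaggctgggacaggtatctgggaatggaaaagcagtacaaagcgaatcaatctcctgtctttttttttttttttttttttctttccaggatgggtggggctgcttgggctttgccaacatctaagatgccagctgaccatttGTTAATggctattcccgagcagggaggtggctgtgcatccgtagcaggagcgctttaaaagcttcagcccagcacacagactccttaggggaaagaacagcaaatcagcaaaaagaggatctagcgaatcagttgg

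Windows were at hand for 44 of the members, 65 in all because some genes have several start sites. The HNF1 core occurred in 6 of the 65 (9.23%), against 7.10% of 32851 windows of all genes, and the HNF4 motif in 1 of 65 (1.54%), against 0.475%. The genes with the HNF1 core were Slc3a1, Slc7a7, Slc6a13, Slc6a20a, Slc36a1 and the untested Slc7a15. A match is a description of letters, not of binding. Slc7a8, which had the smallest p of the members, had a window without either motif.

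Of the 61 members, 17 averaged at least 10 FPKM over the 4 libraries, 22 averaged from 1 to under 10, 18 were lower but above 0, and 4 (Slc1a7, Slc7a15, Slc36a3 and Slc38a8) were listed at 0 throughout. Together they summed to 541 and 513 FPKM in DKO cells, against 653 and 604 in control cells. The 48 members with a group average above 0.1 FPKM were tested with the rest of the table, 18884 genes, by limma on log2(FPKM + 0.5), two-sided. A gene was called where the Benjamini-Hochberg adjusted p was under 0.05 and the group averages differed at least 2-fold. On this scale a fold change, DKO over control, understates the change of a low gene.

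No member was called. limma called 0 of the 48 lower and 0 higher, where the background over all tested genes was 0.0053% lower (1 gene) and 0.0159% higher (3 genes), and the smallest adjusted p of a member was 0.365. At an unadjusted p under 0.05 limma found 12 members lower and 0 higher, against a background of 7.35% lower and 3.35% higher. After FPKM were rescaled to TPM, limma found 9 of 50 members lower at the same unadjusted p and 0 higher. Leaving 1 library out leaves a group without replicates, so no count at this p is given for those fits. In them the log2 fold changes of the 12 ranged from -0.30 (Slc3a2 without control replicate 1) to -1.41 (Slc6a4 without control replicate 2). Both DKO values lay below both controls in all 12, so leaving 1 library out could not turn their sign. Both DKO values lay below both controls in 20 members and above both in 10, while 18 overlapped, and over all tested genes 22.6% lay below and 20.8% above. The average of the DKO group was at most 50% of the control average in 7 members (background 9.91%) and at least double in 2 (6.75%). The median log2 fold change of the 48 was -0.28, beside -0.0092 for all genes tested. It was -0.099 without DKO replicate 2, -0.16 without control replicate 1, -0.18 without control replicate 2 and -0.075 with no filter on low values, which added 9 low members. This split depended on how the libraries were scaled. With FPKM rescaled to TPM, the median of all genes moved to 0.11 and that of the members to -0.12, and 14 members lay below both controls and 15 above, against 13.8% and 32.95% of all genes.

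**Figure D1:**
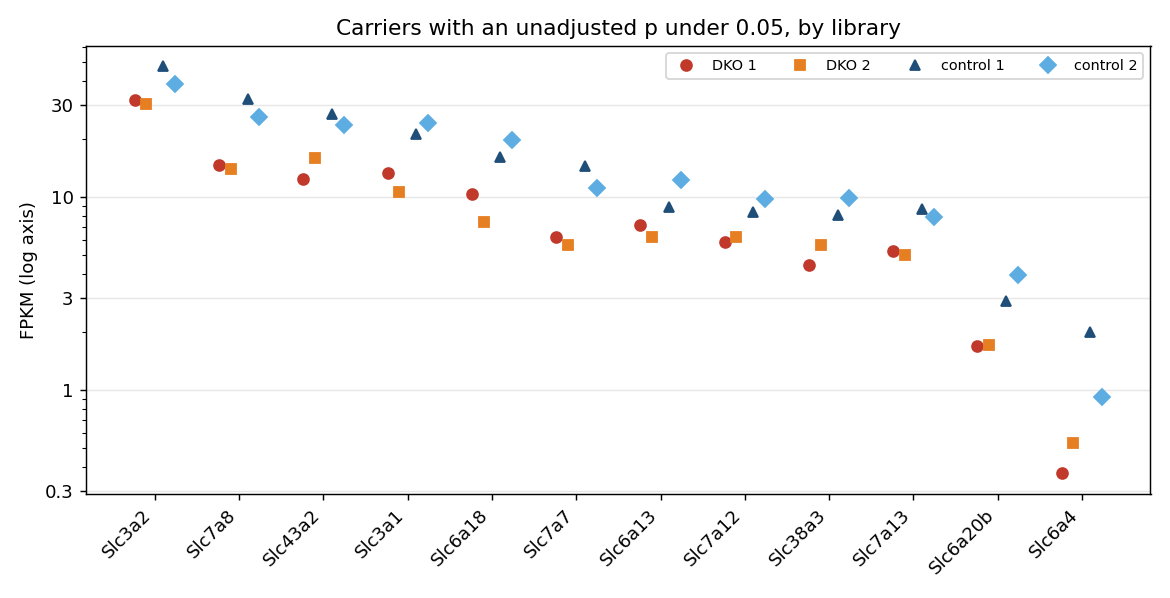
FPKM on a log axis in each of the 4 libraries for the 12 members with an unadjusted limma p under 0.05, ordered by mean level, with DKO libraries as circles and squares and controls as triangles and diamonds. In each of the 12 genes both DKO points lie below both control points, from Slc3a2 at 30.5 to 47.5 FPKM down to Slc6a4 at 0.371 to 2.01 FPKM.

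Among the 4 apical carriers of neutral and imino acids in the proximal tubule, 3 lay below both controls and 1 overlapped. The share below both controls over all tested genes was 22.6%. Slc6a18, an apical carrier of glycine and other neutral amino acids, stood at 10.3 and 7.41 FPKM in DKO cells, against 16.2 and 19.6 in control cells. The groups did not overlap, and the DKO average was 49.5% of that of the controls (log2 fold change -0.99, 95% interval -1.52 to -0.45, limma adjusted p = 0.380). Its neighbor on the minus strand of chromosome 13 in mm10, Slc6a19, is the main neutral amino acid carrier of the kidney, whose loss causes Hartnup disorder in humans. The 2 genes lie at 73661752 to 73678023 and 73679745 to 73704865. Slc6a19 was far lower than Slc6a18 in all 4 libraries, at 0.782 and 1.12 FPKM in DKO cells, against 0.811 and 2.11 in control cells, and its groups overlapped.

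Slc6a20b, an imino acid carrier, was listed at 1.70 and 1.72 FPKM in DKO cells, against 2.91 and 3.95 in control cells (log2 fold change -0.82, adjusted p = 0.394 from limma). Its paralog Slc6a20a lies beside it on chromosome 9 and stood at 0.196 and 0.174 FPKM against 0.474 and 0.589. Both paralogs lay below both controls. They are near-identical copies between which fragments can be divided wrongly, so the split between them is uncertain. The table also places Slc6a20a in a locus that is 4.91 times as long as its GENCODE M21 gene.

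The heavy chain Slc3a1, mutated in human cystinuria, had 13.2 and 10.7 FPKM in DKO cells, against 21.2 and 24.1 in control cells. All DKO values were lower than all control values (log2 fold change -0.90, 95% interval -1.31 to -0.49, limma adjusted p = 0.365). Of its light chains, Slc7a13, which carries anionic amino acids and cystine in the last part of the proximal tubule, stood at 5.28 and 4.99 FPKM against 8.71 and 7.90 (log2 fold change -0.64, adjusted p = 0.384 from limma). Slc7a9, the other cystinuria gene and partner of Slc3a1 in cystine uptake, showed no such separation, at 4.01 and 2.27 FPKM in DKO cells, against 2.84 and 4.99 in control cells. Slc3a1 was 1.43 and 1.47 times the sum of Slc7a9 and Slc7a13 in the DKO libraries, compared with 1.84 and 1.87 times in the controls. FPKM are per length, so these levels can be set side by side. The deposited locus of Slc3a1 was 1.73 times as long as its GENCODE M21 gene, so this ratio carries that uncertainty. Slc7a12, a related exchanger of mouse kidney, stood at 5.83 and 6.20 FPKM in DKO cells, against 8.36 and 9.78 in control cells (log2 fold change -0.55, limma adjusted p = 0.396).

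Slc1a1, the apical glutamate carrier of the tubule, overlapped, with 2.85 and 1.27 FPKM in DKO cells, against 3.67 and 2.40 in control cells. Slc36a2, a proton-coupled carrier of glycine and proline, was low, at 0.0750 and 0.366 FPKM against 0.491 and 0.250.

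The basolateral exchangers divided into light chains that lay lower in the DKO libraries and light chains that did not. Slc7a8, an exchanger of neutral amino acids, had the smallest p of all members. It was listed at 14.6 and 14.0 FPKM in DKO cells, against 32.0 and 26.0 in control cells, so the DKO libraries agreed closely and both controls were well above them (49.2% of the control average, log2 fold change -0.99, 95% interval -1.36 to -0.62, unadjusted p = 0.00102, adjusted p = 0.365 from limma). Slc7a7, which exports cationic amino acids and is mutated in human lysinuric protein intolerance, stood at 6.23 and 5.62 FPKM against 14.5 and 11.1. Its DKO average was 46.3% of the control average (log2 fold change -1.04, 95% interval -1.52 to -0.55, adjusted p = 0.365 from limma). Both genes lie on the minus strand of chromosome 14 in mm10, Slc7a7 at 54369442 to 54417780 and Slc7a8 at 54722209 to 54781946.

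Slc7a5 and Slc7a6 did not share this pattern. Slc7a5, the exchanger of large neutral amino acids in growing cells, stood at 11.7 and 11.1 FPKM in DKO cells, against 9.01 and 9.59 in control cells, slightly above both (log2 fold change 0.28, 95% interval -0.07 to 0.63, adjusted p = 0.549 from limma). The table places it in a locus 167 times as long as its GENCODE M21 gene, so its value carries that uncertainty. Slc7a6, which exchanges cationic for neutral amino acids, had 10.0 and 10.6 FPKM in DKO cells, against 9.55 and 9.64 in control cells. Expressed as 1 ratio, Slc7a7 and Slc7a8 together were 0.960 and 0.903 times Slc7a5 and Slc7a6 together in DKO cells, against 2.51 and 1.93 times in control cells. With 2 libraries a group an exact permutation test of such a ratio cannot give a two-sided p under 0.333. The cystine and glutamate exchanger Slc7a11 was low, at 0.516 and 0.406 FPKM in DKO cells, against 0.155 and 0.268 in control cells.

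The shared heavy chain Slc3a2, also known as the surface antigen CD98, stood at 31.9 and 30.5 FPKM in DKO cells, against 47.5 and 38.6 in control cells (log2 fold change -0.45, 95% interval -0.80 to -0.11, adjusted p = 0.394 from limma). The 6 light chains that pair with it summed to 43.5 and 42.2 FPKM in DKO cells, against 65.8 and 56.8 in control cells. Slc3a2 was thus 0.733 and 0.723 times this sum in DKO cells, against 0.722 and 0.680 times in control cells, a narrow range, whereas the makeup of the sum differed as described.

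**Figure D2:**
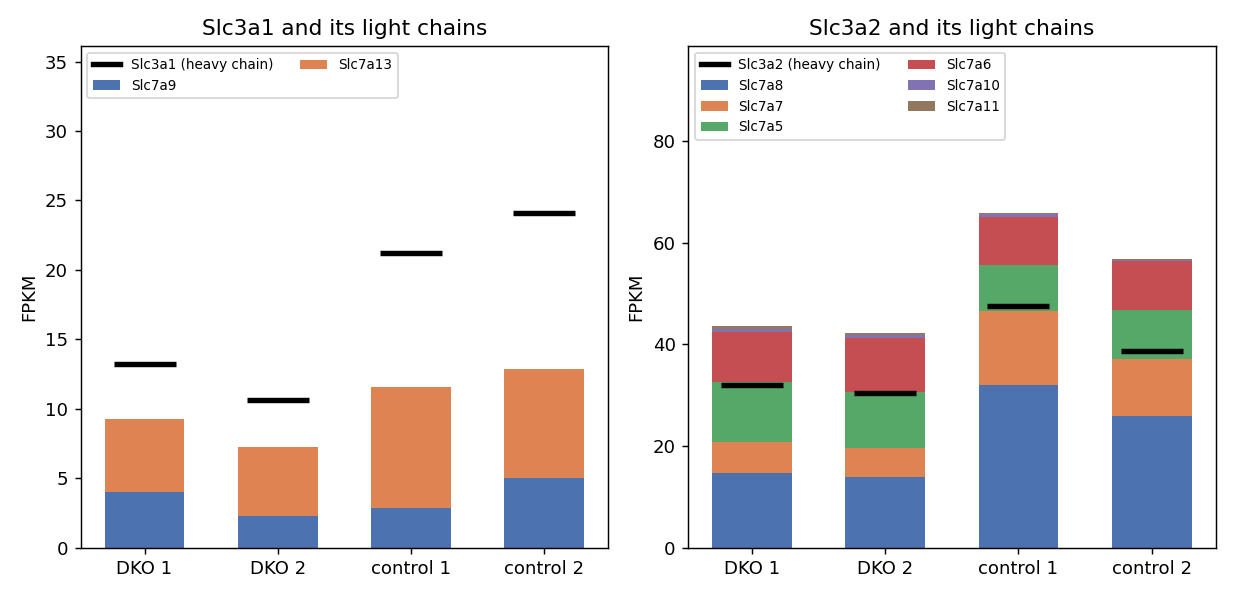
FPKM of the light chains, stacked for each library, with the heavy chain as a black bar, for Slc3a1 on the left and Slc3a2 on the right. The Slc3a1 bar is lower in the DKO libraries, at 13.2 and 10.7 FPKM against 21.2 and 24.1 in the controls, and on the right the Slc7a8 and Slc7a7 segments are smaller in the DKO libraries while those of Slc7a5 and Slc7a6 are not.

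Several carriers work without a heavy chain. Slc43a2, a facilitative exit path for branched-chain amino acids on the basolateral side, had 12.4 and 15.9 FPKM in DKO cells, against 26.8 and 23.6 in control cells (log2 fold change -0.82, 95% interval -1.24 to -0.40, adjusted p = 0.377 from limma), with no overlap. Its relatives Slc43a1, at 2.69 and 2.91 FPKM against 1.80 and 2.54, and Slc43a3, a carrier of nucleobases, at 15.6 and 18.9 against 17.9 and 14.0, lay above the controls or overlapped them. Slc38a3, which takes glutamine into the proximal tubule from the blood, stood at 4.47 and 5.65 FPKM in DKO cells, against 8.10 and 9.93 in control cells (log2 fold change -0.78, adjusted p = 0.384 from limma). Slc6a13, a GABA and taurine carrier that the mouse proximal tubule also uses, had 7.15 and 6.21 FPKM against 8.92 and 12.3 (log2 fold change -0.61, adjusted p = 0.429 from limma), and both DKO values were lower than both controls. Without control replicate 2 the log2 fold change of Slc6a13 was -0.39. Slc6a12, the neighboring betaine carrier, stayed low at 0.528 and 0.763 FPKM in DKO cells, against 0.772 and 1.42 in control cells.

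The proximal tubule markers given above lay lower in the same libraries, with a median log2 fold change of -0.80, and their part in the lower carriers was not tested. Without control replicate 1 the log2 fold changes were -0.99 for Slc3a1, -1.12 for Slc6a18, -0.92 for Slc38a3, -0.84 for Slc7a8 and -0.85 for Slc7a7. With all libraries they were -0.90, -0.99, -0.78, -0.99 and -1.04, in the same order. These directions did not rest on that library, but the size for Slc7a8 and Slc7a7 was smaller without it. For Slc3a1, Slc6a18 and Slc38a3 it was larger.

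Slc38a2 and Slc38a10 had the highest mean levels of all members, and both overlapped between the groups. Slc38a2, which takes up small neutral amino acids and is induced when they run short, stood at 78.3 and 68.7 FPKM in DKO cells, against 73.2 and 68.2 in control cells (log2 fold change 0.05, 95% interval -0.24 to 0.34). Slc38a10 stood at 59.5 and 57.2 FPKM against 52.4 and 58.9, with an interval from -0.20 to 0.35 on the log2 scale. Slc38a1, a glutamine carrier, had 33.1 and 31.0 FPKM against 31.2 and 31.4, with an interval from -0.22 to 0.29. These intervals leave room for a modest difference in either direction. Slc1a5, the glutamine exchanger of dividing cells, was slightly lower, at 32.3 and 32.3 FPKM in DKO cells, against 37.2 and 37.4 in control cells (log2 fold change -0.21, 95% interval -0.45 to 0.04, limma adjusted p = 0.528). Its paralog Slc1a4 lay on the other side, at 3.34 and 3.16 FPKM against 2.51 and 1.95. Slc38a4, a carrier of small neutral and cationic amino acids, lay between its controls, at 21.7 and 21.7 FPKM against 18.3 and 29.5. The lysosomal arginine sensor Slc38a9 was below both controls, at 2.56 and 2.24 FPKM against 3.37 and 2.76, with an interval from -0.88 to 0.29. The glutamine carrier Slc38a5 did not exceed 0.338 FPKM. After rescaling to TPM, Slc1a5 and Slc38a9 no longer lay below both controls, and Slc38a1, Slc38a2 and Slc38a10 lay above them.

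The cationic amino acid carrier Slc7a1 had 12.4 and 11.9 FPKM in DKO cells, against 10.9 and 10.7 in control cells, and the weaker Slc7a3 1.78 and 1.99 against 1.56 and 1.45. Slc7a4, for which no transport activity is established, stood at 4.05 and 4.51 FPKM against 4.94 and 5.69, and Slc7a2, the form also found in macrophages and liver, overlapped at 3.16 and 4.23 against 4.24 and 2.70. Of 4 cationic members tested, limma thus placed none at an unadjusted p under 0.05. Slc36a4, a proton-coupled carrier of proline and tryptophan, was above both controls at 7.12 and 7.66 FPKM against 5.85 and 5.90 (log2 fold change 0.31, adjusted p = 0.573 from limma). None of the 10 members above both controls reached an unadjusted p under 0.05 in limma.

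**Figure D3:**
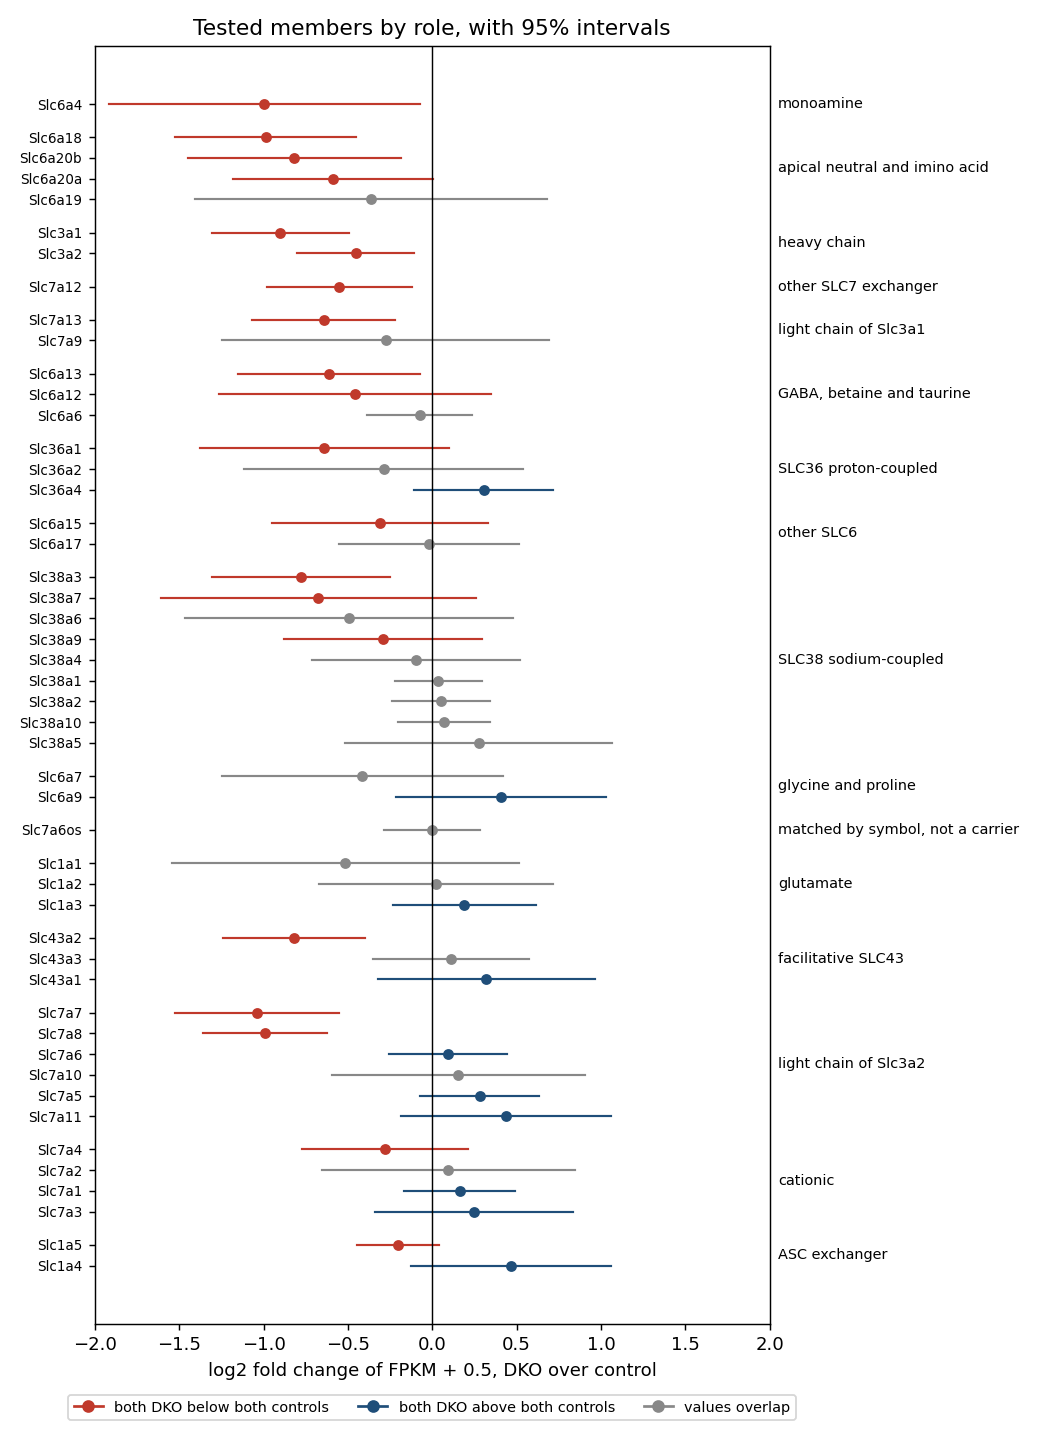
The log2 fold change of FPKM + 0.5, DKO over control, with its 95% limma interval, for each of the 48 tested members, grouped by role and colored by whether both DKO libraries lay below both controls (20), above both (10) or overlapped (18). The apical carriers and heavy chains sit left of 0, the light chains of Slc3a2 lie on both sides with Slc7a7 and Slc7a8 apart from the others, and of the SLC38 members Slc38a1, Slc38a2, Slc38a4 and Slc38a10 lie within 0.1 of 0. Among the 34 tested members picked by the rule for printed values, the points of Slc6a6, Slc6a17 and Slc7a6os cross 0 with rescaling to TPM. Signs of the other members were not followed.

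A further set of members was high in a single control library. Slc38a6, a family member of debated substrate, had 33.6 and 24.4 FPKM in DKO cells, against 58.6 and 28.1 in control cells. The lysosomal glutamine exporter Slc38a7 had 7.77 and 6.92 FPKM against 17.4 and 8.23, and Slc36a1, a proton-coupled carrier of lysosomes, had 6.35 and 5.83 against 12.8 and 7.38. The serotonin transporter Slc6a4 was expressed at a lower level, at 0.371 and 0.532 FPKM against 2.01 and 0.922. In these 4 genes control replicate 1 was 2.09, 2.12, 1.74 and 2.18 times control replicate 2, in the order given. Over the 41 members with a group average of at least 1 FPKM the median of this ratio was 1.03.

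These 4 were picked after their values were seen, as the ones of at least 1 FPKM in a group that were lower in the DKO average and had the largest ratio between the controls. The summed macrophage markers had a ratio of 2.12 between the same 2 controls and the proximal tubule markers one of 0.821. Nephron progenitor and erythroid markers had ratios of 1.60 and 1.46, and the remaining lists 0.576 to 0.795. For Slc3a1, Slc6a18 and Slc38a3 the ratio was 0.881, 0.825 and 0.815, and for Slc7a7 and Slc7a8 it was 1.30 and 1.23. The part of RNA from macrophages or from other cells in these members, and in Slc7a7 and Slc7a8, was not tested. With control replicate 1 left out, the log2 fold change was -0.26 for Slc36a1 and -0.59 for Slc6a4, against -0.64 and -0.996 with all libraries.

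**Figure D4:**
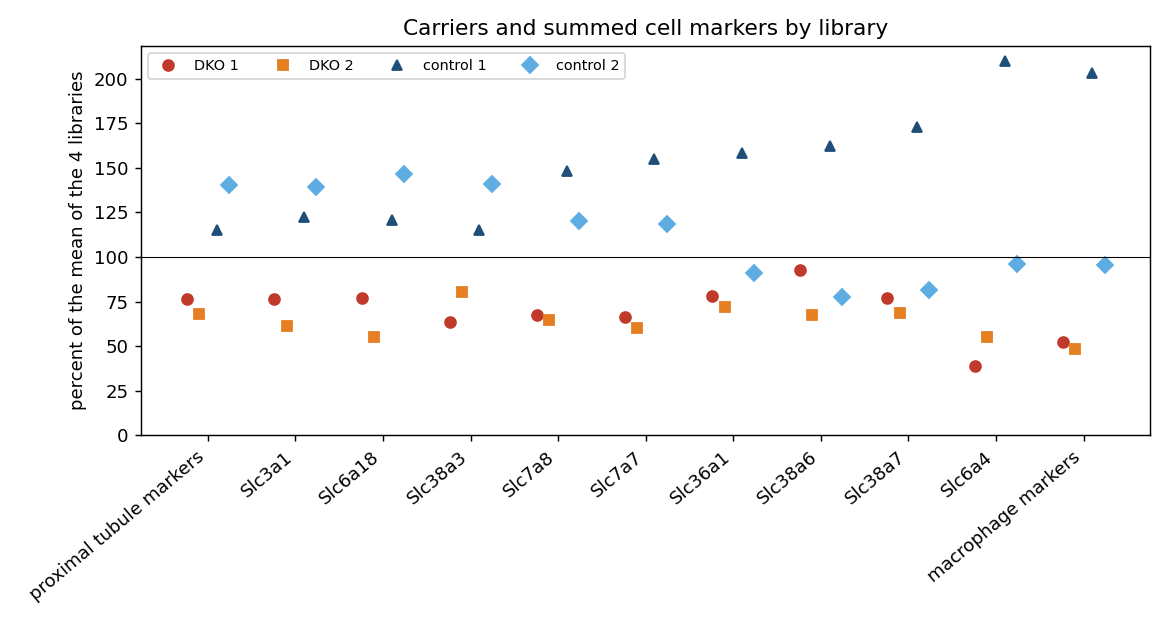
Level in each library as a percentage of the mean of the 4 libraries, for summed proximal tubule markers, 9 carriers and summed macrophage markers. Control replicate 1 is the highest library for Slc7a8, Slc7a7, Slc36a1, Slc38a6, Slc38a7, Slc6a4 and the macrophage markers, reaching 209.8% for Slc6a4 and 203.1% for the markers, while control replicate 2 is the highest for the proximal tubule markers, Slc3a1, Slc6a18 and Slc38a3. Slc36a1, Slc38a6, Slc38a7 and Slc6a4 were picked for their ratio between the controls, so control replicate 1 exceeds control replicate 2 in them by choice.

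The carriers best known for neurotransmitters ranged widely in level. The taurine carrier Slc6a6, which serves cell volume control in the kidney, had 31.5 and 30.5 FPKM in DKO cells, against 35.4 and 30.2 in control cells. Slc6a9, a glycine carrier also present in red cell precursors, stood at 5.91 and 5.09 FPKM against 3.33 and 4.81 (log2 fold change 0.41, adjusted p = 0.622 from limma). Its log2 fold change was 0.17 without control replicate 1 and 0.65 without control replicate 2. The astrocyte glutamate carrier Slc1a2 and the small neutral amino acid exchanger Slc7a10 overlapped between the groups at 0.124 to 0.3001 FPKM and 0.232 to 0.585 FPKM. The glutamate carrier Slc1a3 stood at 7.52 and 8.83 FPKM in DKO cells, against 7.24 and 6.93 in control cells. Slc6a17, a carrier of synaptic vesicles, and Slc6a15, a neutral amino acid carrier of neurons, had 4.33 and 4.89 against 5.22 and 4.19 FPKM and 2.80 and 2.24 against 3.70 and 2.81 FPKM. The noradrenaline carrier Slc6a2 was listed at 0 in 3 libraries and at 0.0429 FPKM in control replicate 2. Slc6a7, the proline carrier of brain, did not exceed 0.498 FPKM. The 13 untested members, which besides the 4 at 0 and Slc6a2 included the dopamine carrier Slc6a3, the GABA carrier Slc6a11, the glycine carrier Slc6a5, Slc1a6, Slc6a14, Slc7a14 and Slc38a11, were at most 0.134 FPKM in any library. Slc7a6os stood at 18.1 and 17.6 FPKM in both groups.

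Genes around these carriers were followed in lists of partners and of the response to amino acid shortage. Of 19 tested partners and other carriers of amino acids, peptides and vesicular transmitters, 9 lay below both controls, 1 above, and 9 overlapped, with a median log2 fold change of -0.14. limma called 0 of them and gave 4 an unadjusted p under 0.05, all lower. Over all tested genes 22.6% lay below and 20.8% above, and limma found 7.35% lower at that p. Tmem27 (collectrin), which brings Slc6a18 and Slc6a19 to the apical membrane, had 45.6 and 39.6 FPKM in DKO cells, against 59.6 and 74.6 in control cells (log2 fold change -0.64, adjusted p = 0.380 from limma). The vesicular monoamine carrier Slc18a1 had 2.83 and 2.64 FPKM against 5.96 and 5.65 (log2 fold change -0.96, limma adjusted p = 0.375). The peptide carrier Slc15a2, at 21.1 and 23.0 FPKM against 26.9 and 16.8, and the mitochondrial aspartate and glutamate carrier Slc25a12, at 23.0 and 24.2 against 19.3 and 28.5, overlapped.

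Of 20 genes of the amino acid response, 8 lay below both controls, 3 above, and 9 overlapped, with a median log2 fold change of -0.0102. The shares over all tested genes were 22.6% below and 20.8% above, and limma called 0 of the 20. Atf4, the transcription factor of this response, stood at 83.3 and 78.3 FPKM in DKO cells, against 101.9 and 74.2 in control cells. The enzymes of serine synthesis Phgdh, at 78.2 and 76.5 FPKM against 58.3 and 73.5, and Psat1, at 53.3 and 53.3 against 54.7 and 53.4, were similarly abundant. Cbs, of cysteine synthesis, and Cebpb, a transcription factor, were the 2 with an unadjusted p under 0.05. Cbs had 1.12 and 1.43 FPKM in DKO cells, against 6.31 and 2.25 in control cells, and Cebpb 19.2 and 20.0 against 43.5 and 26.7. In both genes control replicate 1 was the highest library.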

How the data were processed

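Libraries were strand-specific and sequenced in 1 lane. The authors mapped reads to mm10 with Ensembl release 72 and deposited FPKM per gene and library, with their group averages. Among tools, the submitters' notes list TopHat (1.4.1) and Cuffdiff (2.2.1) without their roles. The scaling between libraries is not stated in what was read here. In the copy used, 2 lines were empty. FPKM are not counts, so limma 3.58.1 (R 4.3.3) was fitted to log2(FPKM + 0.5) of all genes with a group average above 0.1 FPKM, with a variance trend, and tested on simulated data. The fold of 2 and the threshold follow the study's methods, which do not name limma. At these thresholds the study reported far more changed transcripts than limma called genes here, so a member not called may still differ. The study's minimum of 0.1 FPKM was applied here to the larger group average, so the other group could be lower. Figures used Python 3.11.15 and matplotlib 3.10.9.

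Members and lists were chosen with earlier results of these data known. Values were printed for the 10 lower and 10 higher members with the smallest p and at least 1 FPKM in a group, the 2 highest of each role, and the 3 highest and 2 smallest p of each pathway list. Other members named were chosen after their values were seen. Positions come from GENCODE M21, which held 61 of the 61 members. The deposited loci of Slc7a10, Slc1a1 and Slc7a4 were 1.97, 1.68 and 1.42 times as long as their genes there. That of Slc7a11 was 0.14 times as long. The lists of loop and distal tubule, erythroid, podocyte and nephron progenitor markers had 4 of 9, 3 of 6, 1 of 6 and 0 of 6 tested genes below both controls. The share over all tested genes was 22.6%. Relative depth was read from genes under 0.1 FPKM in both libraries. The values of 1 untested member are not reported here.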

Additional observations from a re-analysis of the deposited data

How the results depend on the processing

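No member was called under any of the alternatives, which were pseudocounts of 0.1 and 1, no filter, a minimum of 1 FPKM, TPM and median-ratio scaling, no variance trend, the replicate block and each library left out. The smallest adjusted p of a member ranged from 0.117 to 0.960. Over all genes limma called between 0 and 10 lower and between 0 and 6 higher, against 1 and 3 in the reported fit, the 10 lower and 6 higher being those of the replicate block. With the replicate number as a block, limma called 0 members, and the smallest adjusted p was 0.117 (Slc7a8). In that fit 15 members were lower at an unadjusted p under 0.05 from limma, against 8.335% of all genes. The labels give no origin for the numbers, and deviations of same-numbered libraries had a correlation of 0.105 over genes. With 1 library left out, the lone sample of a group was assumed to vary like the other pair. Then 23 to 28 members lay below both controls or the remaining one, against 31.2% to 44.46% of all genes. Between 11 and 17 lay above (17 without control replicate 1, 16 without DKO replicate 2), against 31.41% to 37.44% of all genes. Fewer libraries make either side more frequent in any gene. Among the 34 tested members picked by the rule for printed values, 15 of 407 fold changes turned sign, in 7 genes. Signs of the other members were not followed. TPM gave 0.10 for Slc6a17, 0.056 for Slc6a6 and 0.13 for Slc7a6os, and median-ratio scaling 0.019 for Slc7a6os. Leaving out libraries gave -0.0400 to 0.15 for Slc38a2, -0.16 to 0.12 for Slc6a17, -0.0605 to 0.28 for Slc43a3, -0.0212 to 0.0195 for Slc7a6os, -0.64 to 0.0829 for Slc7a9, -0.0127 to 0.15 for Slc38a10 and -0.19 to 0.0376 for Slc6a6. The cause was not tested. Depth limits the members under 1 FPKM most, above all in control replicate 1.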
